A study of Rattus norvegicus with 27 samples.

Results

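The microRNAs (miRNAs) of the imprinted Dlk1-Dio3 cluster were examined in small extracellular vesicles (EVs) that cultured rat Schwann cells release into their medium. Members were the entries of the EV miRNA count table named for 43 listed miRNA numbers, with miR-299a and miR-299b taken under their shared number. The choice gave 74 of 965 entries, of which 34 of 481 were mature miRNAs and 40 of 484 were hairpins, the stem-loop precursors. Only miR-376c among the listed numbers is not analysed here. Primary Schwann cells, the glia that wrap axons of peripheral nerves, were bought and used at passages 3 to 5. Undifferentiated cells were grown without dbcAMP (dibutyryl cyclic AMP), which enters cells and acts as cyclic AMP. Differentiated cells had 72 h of 1 mM dbcAMP in DMEM with 1% fetal bovine serum. Dedifferentiated cells were treated likewise and then spent 72 h without dbcAMP in complete medium with 10% serum, forskolin and neuregulin. In both of these media the serum was depleted of exosomes, and the medium of the undifferentiated cells is not given in the sources used here, so stage and medium cannot be told apart. Each stage had 3 EV miRNA libraries, and 3 libraries each of cell mRNA and of EV long non-coding RNA (lncRNA). Sample titles number the 3 libraries of a stage as biological replicates. Nothing in the labels ties a library to a separate animal, so p-values measure the spread between these samples, which may be partly technical.

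The cluster lies between Dlk1 and Dio3, and its genes are imprinted, which means that they are read from the copy of one parent. Dlk1, Rtl1 and Dio3 are protein genes read from the paternal copy, whereas the long RNA Meg3 and the miRNAs are read from the maternal copy. A group of these miRNAs lies antisense to Rtl1 and pairs perfectly with its messenger RNA, and a large group from miR-379 to miR-410 lies further on. The cluster is known for expression in brain, embryo and placenta. A miRNA gene is transcribed, trimmed in the nucleus to a hairpin and cut in the cytoplasm to the short mature form, and its seed, bases 2 to 8, pairs with targets.

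In RefSeq for the rat assembly GRCr8, 39 miRNA genes matched members, and all 39 lay between Dlk1 and Dio3 on chromosome 6. Of these, 37 were on one strand and 2 on the other, and 5 lay within Rtl1 (Mir431, Mir433, Mir127, Mir434 and Mir136). The count table names no build, so no coordinates are given. A RefSeq sequence matched 33 of the 34 mature and 36 of the 40 hairpin members. The 8 mature members of highest mean level are shown because most of the mature signal came from them, 5′ to 3′ with the seed in capitals:

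miR-127-3p: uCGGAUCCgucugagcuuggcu
miR-541-5p: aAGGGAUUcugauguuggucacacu
miR-382-5p: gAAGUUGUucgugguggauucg
miR-409b: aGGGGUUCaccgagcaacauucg
miR-370-3p: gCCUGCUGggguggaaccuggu
miR-433-3p: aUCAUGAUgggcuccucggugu
miR-667-5p: cGGUGCUGguggagcagugagcac
miR-412-5p: uGGUCGACcagcuggaaagu

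No 2 of these seeds are alike. No member shared its seed with any other of the 411 mature entries of the table that had a sequence. The 5 hairpins with enough counts to be tested are shown 5′ to 3′, with the arms that RefSeq annotates as mature miRNAs in capitals:

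mir-337: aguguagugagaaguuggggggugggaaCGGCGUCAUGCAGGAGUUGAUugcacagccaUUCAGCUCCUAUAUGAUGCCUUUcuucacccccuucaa
mir-329: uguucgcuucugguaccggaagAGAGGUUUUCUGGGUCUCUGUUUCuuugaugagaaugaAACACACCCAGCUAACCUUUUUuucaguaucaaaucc
mir-127: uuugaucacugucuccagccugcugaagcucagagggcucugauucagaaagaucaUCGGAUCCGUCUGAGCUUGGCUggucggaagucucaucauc
mir-493: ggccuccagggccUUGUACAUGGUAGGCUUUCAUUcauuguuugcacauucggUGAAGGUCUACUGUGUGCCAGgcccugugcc
mir-379: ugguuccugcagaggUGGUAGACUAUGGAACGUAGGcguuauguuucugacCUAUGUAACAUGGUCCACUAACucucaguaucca

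The mir-337 hairpin had the highest mean level of any member, and its annotated 3p arm, miR-337-3p, had no count in any library. In mir-127 the single capital stretch is miR-127-3p, the mature member of highest level.

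EV miRNA libraries held 81807 to 474965 counts, and 3 counts, taken as the floor, equalled 6.32 to 36.7 CPM, the count scaled to a library total of 1000000. Undifferentiated replicate 1 and dedifferentiated replicate 1 were the shallowest, at 81807 and 90555 counts. Cell mRNA libraries held 10058735 to 16212278 estimated counts and EV lncRNA libraries 2614 to 36563 counts. The Schwann cell markers Sox10, S100b, Ngfr and Erbb3 were all detected in the cells at every stage, summing to 4054 to 7944 CPM. Fibroblast markers summed to 5336 to 19656 CPM, almost all of it Col1a1, while Lum was at 0 and Pdgfra and Dcn stayed under 1 CPM. Neuron markers summed to 34.9 to 74.5 CPM, almost all of it Tubb3. Macrophage and endothelial markers summed to at most 5.09 and 1.11 CPM. The part of other cells in the EV results was not tested.

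Cluster miRNAs were scarce in the vesicles. Mature members made up 7.07% of mature entries but held 492 of 1785449 mature counts over all 9 libraries, 0.0276%. Hairpin members made up 8.26% of hairpin entries and held 1165 of 413292 hairpin counts, 0.282%. Both rows of pairs with like counts, such as mir-434-1 and mir-434-2 at 3 counts each, enter such sums, so some reads may be counted on both. The median mean level was 2.12 CPM for mature members against 14.1 CPM for the 447 other mature entries, and 4.64 CPM for hairpin members against 26.8 CPM for the 444 others. Of the 34 mature members, 5 were at 0 in all libraries, 9 more had 1 to 3 counts in total, and only miR-127-3p was counted in all 9 libraries. Of the 40 hairpins, mir-668 and mir-496 were at 0 throughout, 9 had 1 to 3 counts, and 4 were counted in all 9 libraries. By comparison 149 of the other mature entries and 163 of the other hairpins were counted in every library. A count of 0 allows a level up to the floor of that library and covers counting error only.

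Summed over all mature members, the 3 undifferentiated libraries had 318, 140 and 125 CPM, the differentiated 397, 263 and 229 CPM, and the dedifferentiated 353, 237 and 220 CPM. The stages overlapped, with means of 194 ± 107, 296 ± 88.9 and 270 ± 72.6 CPM (SD, n = 3 each). As a share of a library's counts this ran from 0.0125% (95% Wilson interval 0.00951 to 0.0164) in undifferentiated replicate 3 to 0.0397% (0.0311 to 0.0507) in differentiated replicate 1.

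Summed hairpin members reached 1247, 431 and 240 CPM in undifferentiated, 534, 181 and 606 CPM in differentiated and 2871, 622 and 580 CPM in dedifferentiated EVs. The means were 639 ± 535, 440 ± 227 and 1358 ± 1311 CPM (SD, n = 3 each), and dedifferentiated replicate 1 stood far above the other 8 libraries. Its share was 0.287% of its counts (95% Wilson interval 0.254 to 0.324), against 0.0181% (0.0147 to 0.0224) in differentiated replicate 2, the lowest. In every stage the library with the smallest total had the highest summed hairpin level, and the part of depth in these levels was not tested. A level in EVs does not tell fewer loaded vesicles from fewer copies per vesicle.

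**Figure D1:**
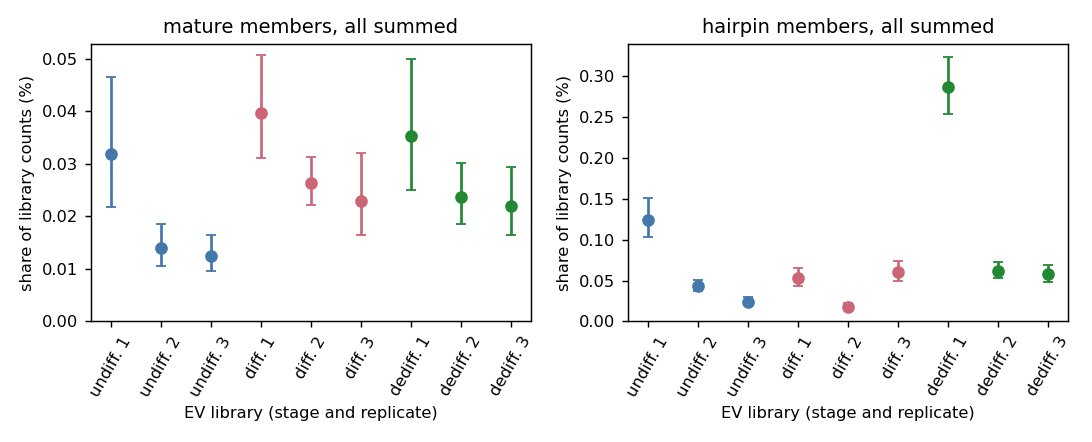
Share of each EV miRNA library's counts held by the 34 mature members (left) and the 40 hairpin members (right), in percent, by stage and replicate, with 95% Wilson intervals that cover counting error only. Dedifferentiated replicate 1 stands apart at 0.287% for hairpins, and the stages overlap for mature members.

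Counts of cluster miRNAs lay mostly on hairpin entries. Hairpins took 79.7, 75.5 and 65.8% of the members' counts in undifferentiated libraries, 57.3, 40.8 and 72.6% in differentiated and 89.0, 72.5 and 72.5% in dedifferentiated ones. For all other entries the hairpin share was 16.5 to 24.4%, so the members were above the rest in 9 of 9 libraries. That share is pooled, so abundant entries weigh most in it. The mature let-7c-5p alone held 370986 of the 1784957 counts of other mature entries. Members were far scarcer, and shares among entries of a like level were not compared. Differentiated replicates 1 and 2 were the lowest for members. How reads were shared between a hairpin and its mature forms is not given in the sources used here, so the table does not show how long the counted fragments were.

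Loci differed. Among loci with both kinds of entry and at least 50 counts in all, mature counts exceeded hairpin counts at 2 of 8 cluster loci and at 147 of 248 other loci (59.3%). The median mature share was 26.1% at those 8 loci against 64.1% elsewhere. A mature entry shared by several hairpin copies was set in full against each copy, so mature counts repeat among the other loci. For example, the same 2286 mature counts stand beside mir-9a-1, mir-9a-2 and mir-9a-3. The number of mature entries per locus differed too, since 7 of the 8 cluster loci had a single one, against 105 of 248 others. Among loci with a single mature entry, mature counts led at 2 of 7 cluster loci and 51 of 105 others, and the median mature shares were 28.3% and 44.6%. At 6 of the 8 loci, mir-337, mir-493 and mir-379 among them, RefSeq annotates 2 arms and the table used here holds 1, so counts of the other arm are not analysed here. The lowest mature share was at mir-337, with 262 hairpin counts and no count of miR-337-3p. The mir-493 locus had 99 hairpin and 7 mature counts. For mir-134, whose mature form is known to act in neuronal dendrites, the counts were 50 and 13, and for mir-379 they were 83 and 26. The locus of mir-127 was nearly even at 124 and 117 counts, and mir-541 was the reverse, with 7 hairpin and 71 mature counts. At mir-370 the mature form also led, with 35 counts against 15. The mature forms of mir-329 (156 hairpin counts) and mir-540 (85 counts) are not analysed here.

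**Figure D2:**
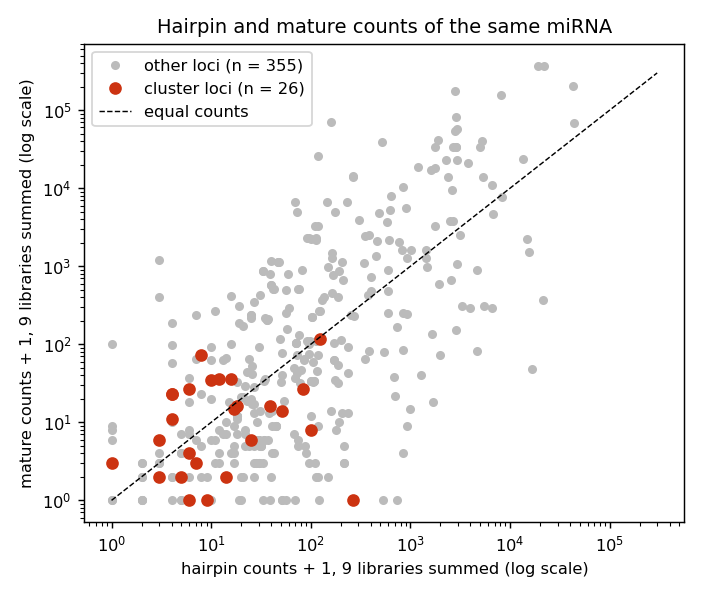
Mature against hairpin counts of the same miRNA, both plus 1 and summed over 9 EV libraries, on log axes, for 26 cluster loci (red) and 355 other loci (grey), with a dashed line at equal counts. Of the red points on the bottom edge, mir-337 lies furthest right, with 262 hairpin counts and a count of 0 for miR-337-3p. That is the one of its 2 annotated arms in the table. A grey point, mir-346 with 536 hairpin counts and a mature count of 0, lies further right there.

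On the Meg3 side of the cluster, 5 hairpins summed to 452, 126 and 118 CPM in undifferentiated, 199, 35.8 and 377 CPM in differentiated and 961, 273 and 278 CPM in dedifferentiated EVs. Undifferentiated and differentiated libraries overlapped, and undifferentiated replicate 1 and differentiated replicate 3 lay above the 2 lower dedifferentiated libraries. The 2 mature members of this side, miR-493-5p and miR-337-3p, had 7 counts together, all in differentiated replicates 2 and 3.

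The mir-337 hairpin had the highest mean level of the 5 over all libraries, though not in differentiated EVs, where mir-540 had 42 counts and mir-337 and mir-493 had 29 each. The levels of mir-337 were 269, 68.5 and 78.4 CPM in undifferentiated, 12.4, 23.2 and 108 CPM in differentiated and 552, 211 and 225 CPM in dedifferentiated libraries. All 3 dedifferentiated libraries lay above all 3 differentiated ones, and the undifferentiated libraries overlapped with both. Non-overlap of this kind was common, since 23.9% of the 184 tested hairpins showed it in this comparison. In edgeR's quasi-likelihood test the difference of dedifferentiated from differentiated EVs was 2.56 on the log2 scale (SE 0.83) with an adjusted p of 0.119 and an unadjusted p of 0.00945, so it was not called. The result turned on the fit: the adjusted p ranged from 0.0197 to 0.355 over 17 alternatives and fell under 0.05 in 3 of them. These were the replicate block, which called 10.9% of all tested hairpins, DESeq2's Wald test and the fit without a filter on low counts, which called 2.53%. The other comparisons gave −1.22 (SE 0.82, edgeR adjusted p = 0.747) for differentiated against undifferentiated and 1.35 (SE 0.78, edgeR adjusted p = 0.305) for dedifferentiated against undifferentiated.

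The mir-493 hairpin, also on the Meg3 side, measured 147, 22.8 and 36.8 CPM in undifferentiated, 149, 8.42 and 6.74 CPM in differentiated and 110, 54.6 and 47.9 CPM in dedifferentiated libraries. Replicate 1 was highest in every stage and the stages overlapped. Its 3 log2 differences lay between −0.27 and 0.51 with SEs of 1.03 to 1.04. The mir-540 hairpin was counted 38 times in differentiated replicate 3, 27 times in dedifferentiated replicate 1 and 11 times in undifferentiated replicate 2, with 0 to 4 counts in each of the other 6 libraries. It had 85 counts in all, did not pass the filter on low counts and has no stage pattern that its replicates share.

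Among the miRNAs antisense to Rtl1, the mature form and the hairpin of miR-127 were both abundant enough to test. Mature miR-127-3p measured 48.9, 22.8 and 31.9 CPM in undifferentiated, 93.1, 86.3 and 26.9 CPM in differentiated and 44.2, 94.6 and 9.59 CPM in dedifferentiated EVs. The 3 stages overlapped, and the dedifferentiated libraries alone spanned the whole range. Libraries did not overlap for 14.7%, 21.5% and 28.8% of the 177 tested mature entries in the comparisons of differentiated with undifferentiated, dedifferentiated with differentiated and dedifferentiated with undifferentiated EVs. It ranked 154 of 481 mature entries by mean level, at 50.9 CPM. Its log2 differences in edgeR were 1.11 (SE 0.89, adjusted p = 0.846) for differentiated against undifferentiated, −0.39 (SE 0.87, adjusted p = 0.845) for dedifferentiated against differentiated and 0.73 (SE 0.90, adjusted p = 0.668) for dedifferentiated against undifferentiated.

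The mir-127 hairpin measured 159, 131 and 41.7 CPM in undifferentiated, 6.21, 21.1 and 40.4 CPM in differentiated and 243, 21.8 and 14.4 CPM in dedifferentiated libraries. In CPM every differentiated library lay below every undifferentiated one, by a narrow margin between 40.4 and 41.7 CPM. By this measure 16.3% of tested hairpins did not overlap in that comparison. CPM leave out the TMM factors of the fit, 0.842 in differentiated replicate 3 and 0.873 in undifferentiated replicate 3. Division by these factors puts differentiated replicate 3 slightly above undifferentiated replicate 3, so the stages then overlap. The log2 difference was −2.03 (SE 1.06) with an edgeR adjusted p of 0.571. The value for dedifferentiated against differentiated EVs, 1.54 (SE 1.07, edgeR adjusted p = 0.445), rested on dedifferentiated replicate 1, and without that library it was −0.36. For dedifferentiated against undifferentiated EVs it was −0.50 (SE 0.99, edgeR adjusted p = 0.790), and −2.39 without the same library.

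The other Rtl1 antisense members were lower. The mir-431 hairpin had 0, 0 and 3 counts in undifferentiated, 2, 3 and 4 in differentiated and 21, 2 and 6 in dedifferentiated libraries. Here 21 of its 41 counts came from dedifferentiated replicate 1. The mature miR-433-3p was counted 6, 9, 2, 6 and 3 times in 5 libraries spread over the stages and was at 0 in the other 4. For miR-434-5p, 16 of 19 counts lay in the 3 undifferentiated libraries (5, 8 and 3). Differentiated replicate 2 had 3 and the dedifferentiated libraries none, too few for the test. Floors in the libraries at 0 ran from 10.9 CPM in dedifferentiated replicate 2 to 33.1 CPM in dedifferentiated replicate 1. They lie above the 7.35 CPM of undifferentiated replicate 3, so the depth does not show the stages to be apart.

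Between the Rtl1 group and miR-379 lie mir-341 and mir-370. Their hairpins together had 1, 0 and 0 counts in undifferentiated, 0, 1 and 2 in differentiated and 9, 6 and 9 in dedifferentiated libraries, or 99.4, 21.8 and 43.1 CPM in the last. The floor in undifferentiated replicate 1 was 36.7 CPM, above the 21.8 CPM of dedifferentiated replicate 2, so the depth does not show the stages to be apart. Neither hairpin reached the filter and no test was made. The mir-370 hairpin had all its 15 counts (1, 6 and 8) in dedifferentiated libraries, whereas the mature miR-370-3p showed no such pattern, with 24.4, 31.4 and 2.45 CPM in undifferentiated, 0, 6.32 and 26.9 CPM in differentiated and 44.2, 21.8 and 19.2 CPM in dedifferentiated EVs.

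In the large group from miR-379 to miR-410, 27 hairpins summed to 611, 157 and 71.1 CPM in undifferentiated, 317, 99.0 and 141 CPM in differentiated and 1314, 247 and 206 CPM in dedifferentiated EVs. The 23 mature members summed to 183, 62.8 and 68.6 CPM, 292, 120 and 155 CPM, and 199, 106 and 192 CPM in the same order. Stages overlapped for both kinds.

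The mir-329 hairpin led this group with 159, 22.8 and 7.35 CPM in undifferentiated, 112, 16.8 and 20.2 CPM in differentiated and 663, 127 and 38.3 CPM in dedifferentiated libraries. The dedifferentiated libraries overlapped with both other stages, and replicate 1 was highest throughout. Dedifferentiated and undifferentiated libraries did not overlap for 26.1% of tested hairpins. The difference of dedifferentiated from undifferentiated EVs was 2.32 (SE 1.12, edgeR adjusted p = 0.225), and 0.89 without dedifferentiated replicate 1. With the replicate number as a block its adjusted p was 0.0454, the one alternative of 17 in which it was called, and 14.1% of all hairpins were called there. Against differentiated EVs the difference was 2.34 (SE 1.11, edgeR adjusted p = 0.266), and 0.93 without that library, and differentiated against undifferentiated EVs gave −0.03 (SE 1.21, edgeR adjusted p = 0.989).

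The mir-379 hairpin, the first of the group, measured 61.1, 34.2 and 9.81 CPM in undifferentiated, 80.7, 10.5 and 0 CPM in differentiated and 309, 25.5 and 43.1 CPM in dedifferentiated libraries. All stages overlapped. Its log2 differences in edgeR were −0.17 (SE 1.20, adjusted p = 0.980), 1.91 (SE 1.17, adjusted p = 0.400) and 1.74 (SE 1.17, adjusted p = 0.388) for differentiated against undifferentiated, dedifferentiated against differentiated and dedifferentiated against undifferentiated EVs. Without dedifferentiated replicate 1 the last 2 were 0.39 and 0.23. The mir-134 hairpin had 0, 1 and 4 counts, 10, 3 and 3 counts, and 17, 11 and 1 counts at the 3 stages in that order.

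Among mature members of the group, miR-541-5p measured 36.7, 22.8 and 31.9 CPM in undifferentiated and 149, 23.2 and 26.9 CPM in differentiated libraries. In dedifferentiated libraries it was at 29.1 CPM in replicate 2 and at 0 in the other 2, so the stages overlapped. The entry miR-409b was counted 6, 11 and 11 times in differentiated libraries (37.2, 23.2 and 74.1 CPM), against 1, 0 and 4 counts in undifferentiated and 2, 0 and 0 in dedifferentiated ones. Its 1 and 2 counts in undifferentiated and dedifferentiated replicate 1 lie under floors of 36.7 and 33.1 CPM, above the 23.2 CPM of differentiated replicate 2, so the depth does not show the stages to be apart. Its 35 counts did not pass the filter and no test was made.

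The sequence of miR-409b holds the reverse complement of the whole of miR-409a-3p, which is not analysed here as a count. Both are given 5′ to 3′ with the seed in capitals to show the pairing:

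miR-409b: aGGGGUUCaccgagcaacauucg
miR-409a-3p: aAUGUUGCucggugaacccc

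Whether the counting used strand is not given in the sources used here, so reads of these opposite-strand partners cannot be told apart from the table. At the hairpin level, 9 pairs of opposite-strand hairpins held a member, and in 3 of them (mir-380 with mir-3579, mir-539 with mir-3576 and mir-382 with mir-3592) both rows had identical counts in all 9 libraries. These rows held only 2, 2 and 9 counts, so few libraries could differ. Of 16 such pairs without a member, 1 was identical in all 9 libraries. Some deeper pairs were nearly equal, such as mir-29a with mir-3556a (4671 and 4675 counts) and mir-24-1 with mir-3074 (2813 and 2846). Others were not, such as mir-501 with mir-3560 (15 and 59). Whether both rows took the same reads was not tested. The mir-337 row differed from its partner mir-3544 in every library, with 262 against 116 counts in all. The rows mir-434-1 and mir-434-2 held the same counts, and both matched the single RefSeq gene Mir434.

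The remaining mature members of highest level were each carried by few libraries. Of the 34 counts of miR-382-5p, 17 came from dedifferentiated replicate 2, 7 from undifferentiated replicate 1 and 6 from differentiated replicate 3. Of the 25 counts of miR-412-5p, 19 came from dedifferentiated replicate 3. Of the 14 counts of miR-667-5p, 6 came from dedifferentiated replicate 1 and 5 from differentiated replicate 1. No stage was high in all its libraries for any of these 3.

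Across the cluster, the filter left 1 of 34 mature members (miR-127-3p) and 5 of 40 hairpins to test, against 176 of 447 other mature entries and 179 of 444 other hairpins. None of the 6 was called at an adjusted p under 0.05 in edgeR in any comparison, and 1 of them, mir-337 in dedifferentiated against differentiated EVs, had an unadjusted p under 0.05. That is 1 of 5 hairpin members, where 20.1% of all tested hairpins had such a p. DESeq2's Wald test called 1 hairpin member in that comparison, with 9.78% of all hairpins called, and none in the others. Of all tested mature entries edgeR called 0.0% for differentiated against undifferentiated, 3.95% for dedifferentiated against differentiated and 9.04% for dedifferentiated against undifferentiated EVs. Of all tested hairpins it called 0.0%, 2.17% and 5.98% in the same order. With so few members tested, the absence of calls is near the background. A member was tested only if some libraries held enough of it, so the 6 do not stand for all 74.

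The 5 tested hairpins had a median log2 difference of −0.27 for differentiated against undifferentiated, 1.91 for dedifferentiated against differentiated and 1.35 for dedifferentiated against undifferentiated EVs. Over all tested hairpins the medians were 0.05, −0.04 and 0.25. The 5 values for dedifferentiated against differentiated EVs ran from 0.51 for mir-493 to 2.56 for mir-337, none of them called. They belong to the hairpins that the filter on low counts let in, and without it 20 of 38 hairpin members had a value above 0, with a median of 0.10. Leaving out dedifferentiated replicate 1 lowered the median of the same 5 hairpins from 1.91 to 0.39 against differentiated and from 1.35 to 0.23 against undifferentiated EVs. With this library left out, mir-337 was at 2.15 against differentiated EVs.

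**Figure D3:**
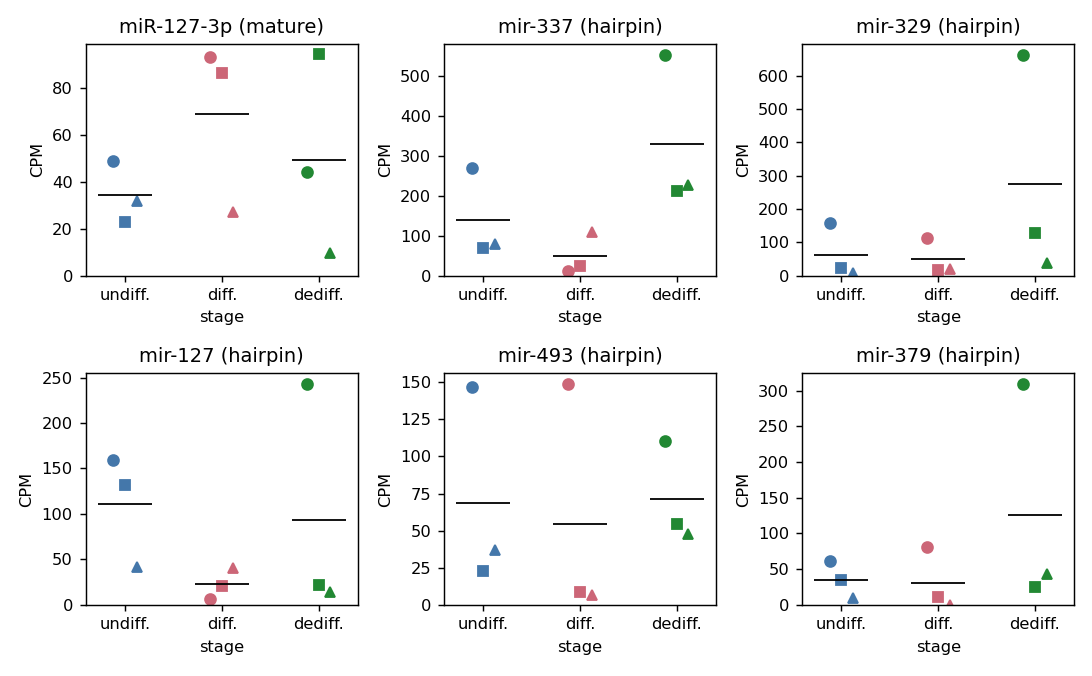
Level in CPM of the 6 tested members in each EV library by stage (circle replicate 1, square replicate 2, triangle replicate 3), with a line at the stage mean and a separate linear axis per panel. For mir-337 the 3 dedifferentiated libraries, from 211 to 552 CPM, lie above the 3 differentiated ones, from 12.4 to 108 CPM, and for mir-329 and mir-379 dedifferentiated replicate 1 stands alone.

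**Figure D4:**
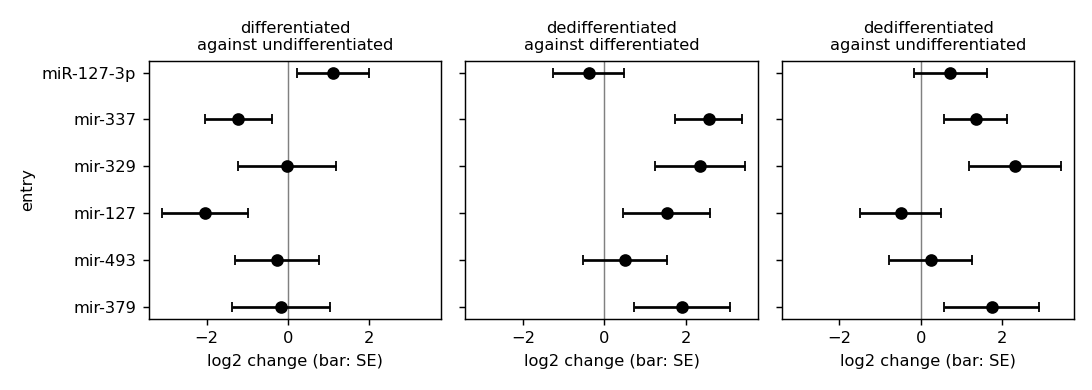
Difference on the log2 scale from edgeR, with its standard error as a bar, for the 6 tested members in the 3 stage comparisons. The mir-337 difference of 2.56 in the middle panel is the one with an unadjusted p under 0.05, and no member was called.

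Other hairpins of the locus that the list of numbers left out included mir-1247, with 1001 counts of which 579 came from differentiated replicate 3, mir-1188 with 198 counts, mir-3544 with 116 and mir-666 with 55. These 4 were tested and edgeR called none of them in any comparison.

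The cells and the lncRNA libraries gave little other sign of the locus. Of 10 gene names listed for the locus (Dlk1, Rtl1, Dio3, Meg3, Meg8, Rian, Mirg, Dio3os, Begain and Wdr25), 3 have rows in the cell mRNA table, and the others are not analysed here. Dlk1, a membrane protein that shares the form of Notch ligands, had 1, 0 and 1 counts in undifferentiated, 5, 4 and 6 in differentiated and 1, 1 and 3 in dedifferentiated cells. The differentiated libraries were highest without overlap, at 0.309 to 0.370 CPM, a level too low for the test. How often cell genes in general did not overlap was not computed, here or for the genes below. Dio3, which inactivates thyroid hormone, was at 0 in all 9 libraries. Among EV lncRNAs, 2 rows lay in the locus, with 8 counts in all, and neither could be tested.

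Begain, the gene that flanks Dlk1 and encodes a protein of neuronal synapses, rose in differentiated cells. Its levels were 1.21, 1.44 and 1.05 CPM in undifferentiated, 7.51, 5.56 and 4.87 CPM in differentiated and 4.92, 2.19 and 2.78 CPM in dedifferentiated cells. The undifferentiated libraries lay below all others, and the 2 later stages overlapped by one library. The log2 difference was 2.22 (SE 0.36, edgeR adjusted p = 0.000329) for differentiated against undifferentiated cells, where 59.6% of all tested genes were called. It was 1.39 (SE 0.37, edgeR adjusted p = 0.0175) for dedifferentiated against undifferentiated cells, against 29.4% of genes called, and it lost its call without undifferentiated replicate 3 (1.25) or dedifferentiated replicate 1 (0.96). For dedifferentiated against differentiated cells it was −0.84 (SE 0.33, edgeR adjusted p = 0.0551), which passed in 5 of 16 alternatives, −1.24 without dedifferentiated replicate 1 among them, and 46.4% of genes were called.

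Of 15 listed regulators of the locus, 12 had rows and 11 were tested. For differentiated against undifferentiated cells 6 fell, none rose and 5 were not called. In dedifferentiated against differentiated cells 4 rose and none fell, and in dedifferentiated against undifferentiated cells 4 fell and none rose. The medians of the 11 were −0.35, 0.16 and −0.28 on the log2 scale, against 0.05, −0.01 and 0.02 for all genes. Over all tested genes 27.9% fell in the first comparison, 23.2% rose in the second and 13.3% fell in the third, and nothing particular to the list was tested.

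Aff3, a factor that binds the imprinting control region of the cluster, had the largest difference of the list. It measured 83.1, 93.0 and 103 CPM in undifferentiated, 22.8, 30.9 and 24.9 CPM in differentiated and 59.4, 58.3 and 56.6 CPM in dedifferentiated cells. The 3 stages did not overlap. Aff3 fell by 1.89 (SE 0.11, edgeR adjusted p = 2.11e-07) on the log2 scale from undifferentiated to differentiated cells and was 1.16 higher (SE 0.11, edgeR adjusted p = 1.69e-05) in dedifferentiated than in differentiated cells. Between dedifferentiated and undifferentiated cells the difference was −0.73 (SE 0.11, edgeR adjusted p = 0.000601).

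Mef2a, a transcription factor known to act on the cluster in muscle, measured 45.0, 58.7 and 50.2 CPM in undifferentiated, 26.8, 34.3 and 29.1 CPM in differentiated and 42.0, 41.8 and 43.0 CPM in dedifferentiated cells. Every differentiated library was below every other library. The log2 differences were −0.83 (SE 0.11, edgeR adjusted p = 0.000111) for differentiated against undifferentiated and 0.50 (SE 0.12, edgeR adjusted p = 0.00482) for dedifferentiated against differentiated cells. Zfp57, a zinc finger protein that keeps imprints methylated, measured 40.3, 33.2 and 39.1 CPM, then 22.5, 19.5 and 24.4 CPM, then 25.9, 29.8 and 30.2 CPM at the 3 stages in order. It fell in differentiated cells by 0.82 on the log2 scale (SE 0.12, edgeR adjusted p = 0.000181), was 0.38 higher in dedifferentiated than in differentiated cells (edgeR adjusted p = 0.0263) and differed by −0.44 between dedifferentiated and undifferentiated cells (edgeR adjusted p = 0.0201). The second of these 3 calls was lost without differentiated replicate 2 (0.30) or dedifferentiated replicate 2 (0.36) or 3 (0.35), and the third without undifferentiated replicate 1 (−0.37) or 3 (−0.43) or dedifferentiated replicate 1 (−0.40).

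Ezh2, the Polycomb methyltransferase, and Dnmt1, the maintenance DNA methyltransferase, changed by −0.42 and −0.40 between undifferentiated and differentiated cells (edgeR adjusted p = 0.00496 and 0.0132). Dnmt1 was also lower in dedifferentiated than in undifferentiated cells, at −0.44 (edgeR adjusted p = 0.0180), a call lost without undifferentiated replicate 3 (−0.42) or dedifferentiated replicate 3 (−0.43). Mef2d, a relative of Mef2a, differed by −0.37 in that comparison (edgeR adjusted p = 0.0297), and its call was lost without undifferentiated replicate 1 (−0.25) or dedifferentiated replicate 1 or 3 (−0.36 each). Ctcf, an insulator protein, differed by −0.19 between differentiated and undifferentiated cells (edgeR adjusted p = 0.0396), a call lost in 8 of 16 alternatives, among them without undifferentiated replicate 2 or 3, differentiated replicate 1 or 3 or dedifferentiated replicate 3 (−0.21 to −0.16). It was 0.21 higher in dedifferentiated than in differentiated cells (edgeR adjusted p = 0.0297), a call lost without replicate 1 or 3 of the differentiated or replicate 2 or 3 of the dedifferentiated libraries (0.19 to 0.23). Labels give cell mRNA replicate 3 another sequencing project than replicates 1 and 2, and with the project as a covariate 6 of the 7 locus and regulator calls for differentiated against undifferentiated cells held, Ctcf being the exception.

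**Figure D5:**
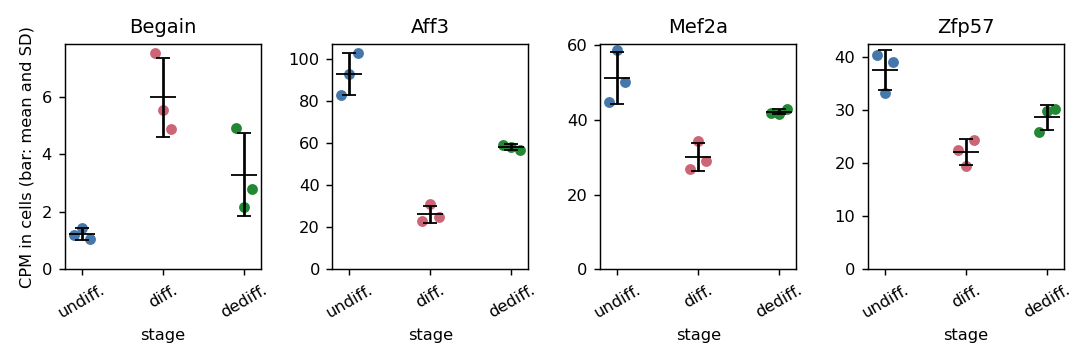
Level in cells, in CPM, of Begain and of the 3 regulators Aff3, Mef2a and Zfp57 in each cell mRNA library by stage, with mean and SD in black (n = 3 per stage). Begain is lowest in undifferentiated cells, and the 3 regulators are lowest in differentiated cells.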

How the data were processed

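EV miRNA, EV lncRNA and cell mRNA were measured in 27 libraries. The authors deposited raw counts per miRNA or lncRNA entry. For mRNA the authors deposited estimated counts per gene, of which 1.15% were fractional and all were rounded. The submitters' processing notes name FastQC, Trim Galore, cutadapt, STAR, HISAT2, SAMtools, Picard, bedtools, Salmon, MultiQC and DESeq2 1.26.0, without roles, and the counter, build and miRNA database of the miRNA table are not given in the sources used here. Columns were matched to samples by library code and stage. The mRNA column names also hold a replicate suffix unlike that of the sample titles, and the titles were followed.

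Each table was fitted whole with edgeR 4.0.16 in R 4.3.3 (filterByExpr with a minimum count of 10, TMM, library sizes over all rows, quasi-likelihood test, 9 libraries and 3 stages, no covariate). Calls needed a p under 0.05 after Benjamini-Hochberg adjustment over all features tested, and the SE of a log2 difference is its size over the square root of F. CPM are counts scaled to a library total of 1000000, without TMM. Intervals are 95% Wilson intervals. The scripts were tested on simulated data. Some listed marker genes are not reported here. Members and gene lists were chosen with earlier results of these data known. Members named in full were the 8 of highest mean CPM of each kind and those tested, and regulators those called; other members singled out were chosen after their values were seen. Alternatives were a replicate block, DESeq2 size factors, library size alone, the Wald test of DESeq2 1.42.0, other filters, entries of one kind, leaving out the 10 most abundant entries, and leaving out libraries.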

Additional observations from a re-analysis of the deposited data

Results flagged for a closer look

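In the EV lncRNA libraries, which the miRNA comparisons do not use, the locus row LOC108351376 had 5 counts in differentiated replicate 3, above the floor of 3 counts. It also had 2 counts in undifferentiated replicate 2 and 1 in undifferentiated replicate 3, and none in the other 6 libraries.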

How the results depend on the processing

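Mature members called stayed at 0 in all comparisons under each alternative that could be fitted. One hairpin member was called in dedifferentiated against differentiated EVs with the replicate block, the Wald test and no filter (1 each, of 20, 18 and 12 hairpins called in all), and in dedifferentiated against undifferentiated EVs with the block (1 of 26). No member had 10 counts in every library, so that filter gave no value. The median of tested hairpins without a filter was 0.1 for dedifferentiated against differentiated and 0.0 against undifferentiated EVs, over the 38 hairpin members that then entered. With both libraries under 100000 counts left out, an alternative chosen after seeing the data, the first of these medians was 0.28. The same alternative turned mir-329 to 1.47, mir-493 to 0.5 and mir-379 to 0.2 for differentiated against undifferentiated and mir-127 to −0.35 for dedifferentiated against differentiated EVs, and the block turned mir-329 to 0.09 in the first comparison. The cause was not tested.

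Leaving out 1 library at a time, hairpin members called stayed at 0. Their median, over whichever hairpins then passed the filter, ranged from −1.18 to 0.43, from 0.27 to 2.0 and from 0.07 to 2.05. The order is differentiated against undifferentiated, dedifferentiated against differentiated and dedifferentiated against undifferentiated. In place of 5 hairpins, 6 passed without dedifferentiated replicate 1 and 7 in each of the other fits. Over the same 5 hairpins the median ranged from −1.65 to 0.23, from 0.39 to 2.72 and from 0.23 to 1.68. The mature median ranged from −1.09 to 1.1, from −1.79 to 1.29 and from −0.74 to 0.85. It was taken over the 1 or 2 mature members that then passed the filter. The ends 1.1, −1.79 and −0.74 came from fits that tested 1 mature member. In the same order of comparisons, mir-329 ranged from −1.18 to 1.36 and 0.93 to 3.34 in the first and second, mir-379 from −1.99 to 0.31, 0.39 to 3.58 and 0.23 to 2.05, mir-493 from −2.68 to 0.43, −0.22 to 2.72 and −0.35 to 0.77, mir-127 from −0.36 to 2.08 in the second and −2.39 to −0.04 in the third, and miR-127-3p from −0.74 to 1.04 in the third. Locus and regulator genes called in cells numbered 6 to 7, 2 to 5 and 2 to 6, against 7, 4 and 5 with all libraries. The lowest counts came without dedifferentiated replicate 2 or 3 in the second comparison and without undifferentiated replicate 3 in the third.

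Replicate numbers were not taken to pair libraries, since not every same-numbered pair correlated above 0.1. In EV miRNA, deviations correlated by 0.123 on average for same-numbered libraries (lowest −0.083) and by −0.058 for others, and 3 of 9 libraries correlated best with their own number. In cell mRNA the values were 0.175 (lowest 0.028) and −0.084, and 8 of 9 did. For EV lncRNA they were 0.238 (lowest 0.0065) and −0.111, and 7 of 9 did. Library codes also run in order within each replicate number in every assay. Whether same-numbered libraries were prepared together is not given in the sources used here, so pairing stays a hint. With the replicate block, calls over all 361 tested entries went from 0 to 10, 11 to 40 and 27 to 51. In cells the block gave 7, 5 and 6 of the locus and regulator genes. At 3 counts the floor reached 36.7 CPM in the shallowest library, above the mean level of most members.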
